A study of Mus musculus with 3 samples.

Results

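Non-cycling goblet cells of the mouse small intestine were taken from single-cell RNA sequencing libraries of EpCAM+ epithelial cells by 4 limits on each cell barcode. A member had Tff3 at 2% or more of its UMIs (unique molecular identifiers, each counting 1 captured RNA molecule), Lyz1 below 0.2%, Defa24 below 5%, and at most 1 summed UMI over 8 cell-cycle genes (Mki67, Top2a, Birc5, Ube2c, Cdk1, Ccnb1, Ccnb2 and Cenpf). All barcodes had first to show 500 or more genes and at most 20% mitochondrial UMIs. Of 39227 kept barcodes in 3 libraries, 4756 were members. They numbered 2441 in the WT library, 1624 in the LApc library and 691 in the LApcL library. The members were thus chosen by their shares of Tff3, Lyz1 and Defa24 and their cell-cycle UMIs, and the levels of these genes are given as a description.

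The WT library came from a wild-type C57BL/6 mouse. The LApc mouse carried Lgr5-CreERT2 and Apc fl/fl, and the LApcL mouse carried Lef1 fl/fl in addition. Each library held the cells of 1 mouse, and every mouse received 2 doses of 2 mg tamoxifen at 7 to 8 weeks of age. The WT and LApcL mice were taken 21 days later and the LApc mouse 29 days later, so that genotype and day cannot be told apart for LApc, and the labels give the criteria for euthanasia as what set the time. Apc is a negative regulator of Wnt signalling, Lef1 a transcription factor that acts at Wnt target genes, and the Lgr5 driver confines recombination to stem cells and what descends from them. The study asked how loss of Lef1 alters adenoma formation after loss of Apc. With 1 library per genotype no difference between genotypes could be tested. Ratios are given with 95% intervals that cover the counting of UMIs and not the spread between mice, and a 2-fold difference is a fixed size, not a test.

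Goblet cells are secretory cells that arise from crypt progenitors in which Notch signalling is low and the transcription factor Atoh1 is active. Spdef, Foxa3, Klf4 and the Creb3l factors act downstream in their maturation. Their cargo is folded and disulfide-bonded in the endoplasmic reticulum (ER), heavily O-glycosylated in the Golgi and packed into granules. The gel-forming mucin Muc2 builds the mucus, to which Fcgbp, the metalloprotease Clca1, the lectin-like Zg16 and the trefoil peptide Tff3 are secreted alongside.

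The rule used Tff3 alone of the 5 goblet markers, so the other 4 are the check of the name. All 5 marker transcripts were present in 97.9% of WT, 92.98% of LApc and 91.6% of LApcL members. After each barcode was thinned to 3000 UMIs the shares were 94.2%, 89.4% and 87.4%, against 9.96%, 4.00% and 3.48% of enterocytes. Enterocytes are absorptive cells that should lack these genes, and the class chosen here by Fabp1 also held tuft cell transcripts. Enterocytes were chosen with Tff3 under 2%. Without Tff3, the other 4 were all present in 94.2%, 89.4% and 87.4% of thinned members and in 10.3%, 4.05% and 3.48% of thinned enterocytes. The median member of the WT library had 8676 UMIs and 2177 genes, that of the LApc library 5131.5 UMIs and 1454 genes, and that of the LApcL library 6635 UMIs and 1825 genes. The smallest kept barcodes of the WT, LApc and LApcL libraries held 5843, 1763 and 2822 UMIs, so the WT library lacks the shallow barcodes that the other libraries contain. At the Tff3 limit, 32, 29 and 10 barcodes lay between 2% and 2.2% in WT, LApc and LApcL, and 23, 33 and 23 lay between 1.8% and 2%. Just inside the limit the median Muc2 share was 0.325%, 0.216% and 0.215% of UMIs. Just outside it was 0.412%, 0.209% and 0.219%.

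Transcripts of other cell types were found in most members, and at higher levels in part of them. Fabp1 UMIs were in 87.1%, 97.7% and 72.4% of members and Defa24 UMIs in 100%, 99.507% and 99.4%, and the list of 8 enterocyte genes summed to 7300, 11637 and 6470 CPM in the members (the summed UMIs of the genes in all cells of a class in a library, scaled to a common total of UMIs). The share with 10 or more UMIs of 12 hormone genes, or with Fabp1 at 0.5% of UMIs or more, was 8.73%, 9.30% and 3.91% in WT, LApc and LApcL. The summed level of 9 Paneth genes was 8598, 4559 and 5731 CPM, against 4423, 1475 and 1099 CPM in enterocytes. Immune genes (7) summed to 5.71, 10.4 and 1.85 CPM and stromal genes (4) to 0.357, 1.64 and 1.03 CPM. Cell barcodes shared between libraries were few among the members, 4 between WT and LApc and 2 between LApc and LApcL. The floxed genes were read from the 3′ end of the transcript, which does not show whether an exon was deleted. Apc stood at 14.9, 16.02 and 17.5 CPM in the members of WT, LApc and LApcL. Lef1 had 0, 3 and 1 UMIs in them, where 0 UMIs allows up to 0.134 CPM. All other kept cells, which throughout leave out the other goblet classes described below, held 0.144, 4.75 and 3.14 CPM. Hspa1a, a heat shock gene that tissue dissociation can induce, was at 20.8 CPM in WT members and at 0.351 and 0.206 CPM in LApc and LApcL members, and at 56.0, 0.173 and 0.498 CPM in enterocytes.

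The members made up 21.4% of the kept barcodes in WT (95% exact binomial interval 20.7 to 22.2), 14.9% in LApc (14.3 to 15.6) and 4.07% in LApcL (3.78 to 4.38). These intervals cover the counting of barcodes in 1 library of 1 mouse each and leave out the variation between mice and captures. Among all barcodes that passed a goblet limit, which adds the cycling goblet cells (2 or more UMIs of the 8 cell-cycle genes) and the Lyz1-rich goblet cells, the order was another. Members were 68.6% of 3560 such barcodes in WT, 85.6% of 1897 in LApc and 67.8% of 1019 in LApcL. When all barcodes were thinned to 3000 UMIs before the limits were applied these shares were 83.8%, 91.0% and 83.7%. With only barcodes of 6000 UMIs or more in every library, members were 21.4%, 8.84% and 3.08% of the kept barcodes of WT, LApc and LApcL, so the LApc share depended on its shallow barcodes. The lower share in the LApcL library and the number of other epithelial cells captured and sorted with the goblet cells cannot be told apart.

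**Figure D1:**
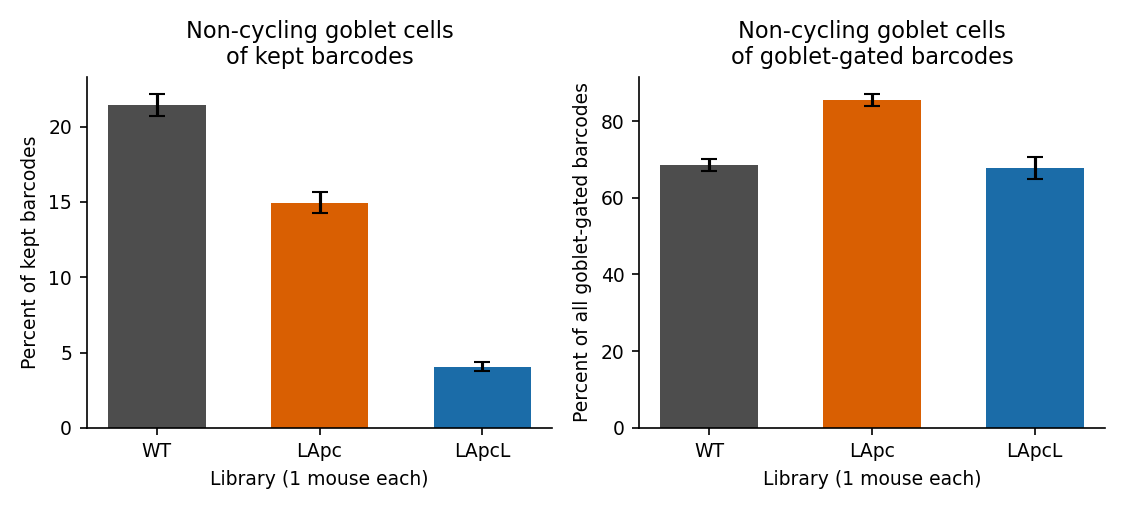
Share of non-cycling goblet cells by library, as percent of all kept barcodes (left) and as percent of all barcodes within the goblet limits (right). Bars start at 0, each bar is 1 library of 1 mouse, and the error bars are 95% exact binomial intervals. The share of kept barcodes steps from 21.4% over 14.9% to 4.07%, whereas LApc stands highest at 85.6% of the goblet-limited barcodes.

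The 5 markers took a large part of each member's RNA. Together they held a median of 13.8% of a member's UMIs in WT (interquartile range 8.07 to 23.1), 30.2% in LApc (12.4 to 48.5) and 15.8% in LApcL (8.59 to 31.5). Zg16, which binds the cell wall of Gram-positive bacteria, varied most widely among them, with a median of 4.60% of UMIs in WT (0.941 to 11.2), 14.9% in LApc (4.65 to 26.9) and 6.55% in LApcL (1.90 to 14.6). Members with 20% or more of their UMIs on Zg16 made up 13.4%, 40.0% and 17.1%, and those below 2% made up 33.7%, 16.7% and 25.3%. The ranges of the libraries overlapped for every marker. Tff3, on which the members were chosen, had medians of 6.61%, 8.79% and 6.65%. Muc2 was at a median of 0.981%, 1.27% and 0.865%, Clca1 at 0.470%, 0.375% and 0.361%, and Fcgbp, the IgG Fc binding protein of mucus, at 1.15%, 3.62% and 1.61%.

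**Figure D2:**
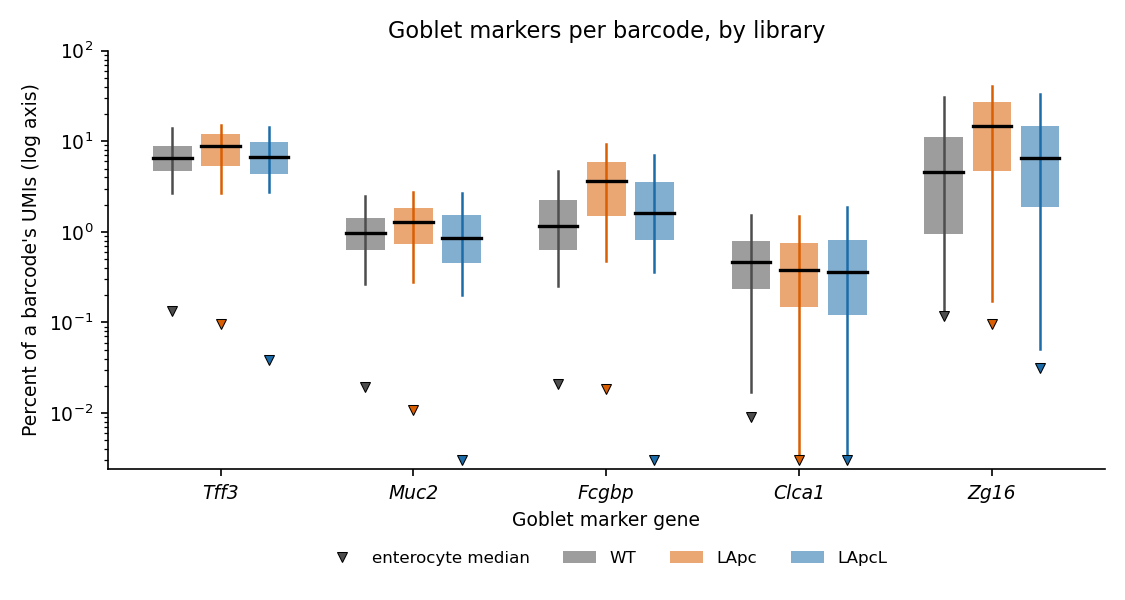
Percent of a barcode's UMIs on each of the 5 goblet markers in non-cycling goblet cells (log axis). Boxes span the interquartile range, black bars mark medians, thin lines reach from the 5th to the 95th percentile, triangles are the medians of the enterocytes of the same library, and values below the axis are drawn at its foot. The Zg16 boxes are the widest and the LApc box the highest, with a median of 14.9%.

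Against all other kept cells of the same library, the members stood apart by their cargo, by their glycosylation enzymes and by their fate factors. These other cells leave out the cycling and the Lyz1-rich goblet cells, so the contrast is largely one of goblet cells with other cell types. Of 2270 genes with 50 CPM or more, 155 (6.83%) were 2-fold or more higher in the members in all 3 libraries and 182 (8.02%) were 2-fold or more lower. In the list of secreted cargo 11 of the 14 genes at that level were higher in all 3 libraries and 0 were lower, with Tff3 among the higher ones by the rule. Zg16 was at 80531, 149933 and 89286 CPM in the members of WT, LApc and LApcL, and at 2391, 1945 and 592 CPM in the other cells. Clca1 was at 5679, 4458 and 4861 CPM in the members and at 215, 71.9 and 37.5 CPM in the others. The exceptions among the cargo included Itln1 and Ang4, an intestinal lectin and an antimicrobial ribonuclease, whose levels in WT members (953 and 496 CPM) lay below those in the other cells (5243 and 2136 CPM).

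Among O-glycosylation and sulfation genes, 12 of 17 were 2-fold higher in the members in all 3 libraries and 0 were lower. Gcnt3, which branches mucin glycans, was at 283, 451 and 291 CPM against 23.9, 34.1 and 36.0 CPM in other cells. Chst4, a sulfotransferase, was at 95.9, 128 and 93.1 CPM against 7.54, 15.2 and 3.65 CPM. In the list of secretory fate factors and Notch genes, 6 of 11 were higher and 2, Hes1 and Sox4, were lower. Atoh1 was at 172, 184 and 133 CPM against 16.7, 10.7 and 6.11 CPM, and Spdef at 143, 111 and 105 CPM against 12.3, 9.97 and 6.56 CPM. Hes1, the Notch target that represses Atoh1, was at 44.4, 48.9 and 68.1 CPM in the members and at 97.3, 107 and 153 CPM in the others. The stress sensor Ern2, the secretory-cell form of Ire1, was at 109, 119 and 96.4 CPM against 9.08, 8.27 and 5.69 CPM. ER folding genes were higher in 4 of 17 cases and ER entry and traffic genes in 6 of 19, with 0 lower in either list. Sytl2, which docks secretory granules at the membrane, belonged to the latter with 109, 158 and 114 CPM against 8.57, 6.76 and 2.52 CPM.

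The genes with the largest differences from other cells that are not themselves mucus components were Ido1, Capn9, Fer1l6, Serpina1b, Bcas1 and Pla2g10. Ido1, the first enzyme of tryptophan breakdown by the kynurenine route, was at 113, 158 and 152 CPM against 3.88, 5.29 and 1.75 CPM. Pla2g10, a secreted phospholipase, was at 181, 173 and 126 CPM against 9.29, 9.07 and 6.46 CPM. Capn9, a calpain protease of the digestive tract, was at 129, 154 and 131 CPM against 5.93, 4.94 and 1.65 CPM. In the list of Paneth genes 4 of 9 were lower in all 3 libraries, a direction that the limits on Lyz1 and Defa24 set in part.

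Enterocytes gave a comparison with a class chosen by its Fabp1 share, which was not a pure cell type. Tuft cell genes (6) summed to 490, 162 and 446 CPM in it, against 147, 70.8 and 93.5 CPM in all other kept cells. The tuft cell gene Dclk1 was found in 8.84%, 2.08% and 9.84% of thinned enterocytes. The part of tuft cells in the values of this class was not tested. Of 2374 genes, 179 (7.54%) were 2-fold or more higher in the members in all 3 libraries and 523 (22%) were lower. All 14 cargo genes at 50 CPM, 7 of 8 fate factors, 11 of 19 glycosylation genes, 9 of 17 ER folding genes and 7 of 21 ER entry and traffic genes were higher, and all 8 enterocyte genes were lower. Fabp1 and Tff3 defined the classes, so their differences are no result, and the cargo count without Tff3 is 13 of 13. Agr2, the ER disulfide isomerase that mucin folding needs, was at 20220, 10205 and 9794 CPM against 454, 156 and 89.9 CPM. Rep15, an effector of Rab15, was at 367, 294 and 266 CPM against 8.36, 4.94 and 5.23 CPM. Ramp1, a partner of the receptor for calcitonin gene-related peptide, was at 327, 355 and 386 CPM against 8.88, 6.41 and 3.24 CPM. The tryptase gene Tpsg1 was at 546, 413 and 442 CPM against 13.1, 9.79 and 3.99 CPM. Papss2, which supplies activated sulfate, was the glycosylation list member with the largest difference in the other direction, with 72.3, 76.7 and 46.3 CPM against 828, 690 and 595 CPM. Reg1 was at 307, 377 and 183 CPM in the members and at 5547, 3948 and 5331 CPM in enterocytes.

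Cycling goblet cells, 1085, 266 and 301 barcodes, differed from the members in few genes beside those of the cell cycle. They were the deeper class, with median UMIs of 11284, 7543 and 8648 against 8676, 5131.5 and 6635 in the members. Since the limit is a raw count of cell-cycle UMIs, the split between the classes depends in part on depth. Of 2172 genes, 4 (0.184%) were 2-fold or more higher in the members in all 3 libraries and 67 (3.08%) were lower. The lower genes were led by those used to choose the members and by other cell-cycle genes such as Hist1h2ap, at 6.20, 4.33 and 14.0 CPM against 121, 116 and 113 CPM. The higher genes were Ido1, 2010109I03Rik, Zg16 and Mxd1. Ido1 was higher by a log2 ratio of 1.55, 1.44 and 1.41 in WT, LApc and LApcL, and Mxd1, a dimerisation partner of Max that opposes Myc, by 1.03, 1.48 and 1.06. Clca1 (0.81, 1.68 and 1.10) and Fcgbp (0.80, 1.38 and 0.84) were above 0 in each library but under 2-fold in at least 1. Of the cargo genes 1 of 14 was 2-fold higher in all 3 libraries, and of the ER folding (17), ER entry and traffic (19), glycosylation (17) and fate factor (10) genes 0 were 2-fold higher or lower. Atoh1, for instance, differed by 0.35, 0.36 and 0.38 and Spdef by 0.26, 0.47 and 0.26. In place of 71 genes in either direction there were 8 with Tff3 at 5% or more and 38 after removal of the highest doublet scores.

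The Lyz1-rich goblet cells were few (34, 7 and 27 barcodes), so their levels are uncertain. Of 1896 genes, 14 (0.738%) were 2-fold or more higher in the members in all 3 libraries and 13 (0.686%) were lower. Apart from Lyz1, which set the limit, the lower genes included defensins and Mmp7, the protease that activates them in Paneth cells, and Rnase1, at 45.9, 36.1 and 60.3 CPM against 133, 139 and 476 CPM. Defensin copies are near-identical, and their counts can be split between copies. The higher genes included Mxd1, with 69.6, 165 and 141 CPM against 27.3, 46.4 and 58.8 CPM, the enterocyte genes Sis and Rbp2, and the membrane mucin Muc3.

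Members also differed among themselves along an axis of mucus content. They were ordered within each library by the share of Muc2 and cut into tertiles of 814, 542 and 231 cells. The 5 markers held 31.4%, 46.0% and 37.7% of all UMIs in the highest tertile of WT, LApc and LApcL and 8.55%, 12.5% and 7.96% in the lowest. Because such a share lowers every other gene on a scale of total UMIs, ratios are given on that scale and on a total without the 5 markers. On the first scale 71 of 2050 genes (3.46%) were 1.5-fold or more higher in the highest tertile in all 3 libraries and 731 (35.7%) were lower. On the second, 330 of 2521 (13.1%) were higher and 178 (7.06%) were lower. With tertiles by Zg16 in place of Muc2, 79 of 2054 (3.85%) were higher and 823 (40.1%) lower on the first scale.

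Several genes were high together with Muc2 on both scales. Ido1 was at 331, 283 and 430 CPM in the highest tertile and at 7.39, 59.6 and 3.79 CPM in the lowest. Ttyh1, a membrane protein of the tweety family, was at 51.1, 86.8 and 68.7 CPM against 3.50, 13.6 and 4.33 CPM. Mxd1 was at 153, 276 and 353 CPM against 27.0, 85.5 and 29.2 CPM, and Clps, which encodes the lipase cofactor colipase, at 638, 2598 and 1158 CPM against 115, 574 and 199 CPM. Zg16 was higher by 2.72, 2.35 and 3.04 on the log2 scale, Clca1 by 1.79, 2.08 and 2.91, and Fcgbp by 1.55, 1.86 and 2.25. Clca1 and Fcgbp were also higher in the highest Zg16 tertile, where Ido1 was higher by 6.98, 4.29 and 5.19 and Ttyh1 by 4.52, 4.16 and 3.85. Ido1 UMIs were nonetheless confined to part of the members. After thinning to 3000 UMIs 11.6%, 18.2% and 16.3% of members had at least 1, against 1.37%, 1.13% and 0 of 488 enterocytes, a count of 0 that allows up to 0.615%.

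Other genes were highest in the lowest Muc2 tertile. Srm, which makes spermidine, was at 34.2, 6.41 and 11.4 CPM in the highest tertile and at 98.6, 50.4 and 71.4 CPM in the lowest. Gpx2, a glutathione peroxidase of the intestinal epithelium, was at 146, 93.2 and 140 CPM against 503, 447 and 405 CPM. The chemokine Ccl9 was at 131, 66.3 and 51.9 CPM against 637, 436 and 670 CPM, and Rnase1 at 15.1, 10.3 and 14.5 CPM against 84.4, 67.8 and 109 CPM. Sox9, a factor of crypt progenitors and Paneth cells, had log2 ratios of -1.05, -2.21 and -1.64 between Muc2 tertiles and of -2.30, -2.95 and -2.41 between Zg16 tertiles. On the total without markers, Srm, Ccl9 and Rnase1 kept ratios below -1, and Sox9 stood at -0.64, -1.52 and -1.08. Ribosomal protein genes (113) held 10.5%, 5.80% and 9.28% of the UMIs in the highest tertile and 20.5%, 20.3% and 27.7% in the lowest, and without the markers in the total 15.3%, 10.7% and 14.9% against 22.5%, 23.2% and 30.1%. Cck and Ghrl, hormone genes, were also lower in the highest tertile. Members with 10 or more hormone UMIs made up 6.76%, 4.24% and 2.60% of the lowest tertile and 2.95%, 1.48% and 1.30% of the highest, and their part in these differences was not tested. Median UMIs were 8570 and 8583 in the highest and lowest tertile of WT, 4230 and 6000 in LApc, and 5567 and 7214 in LApcL.

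The scale decided what could be said of the secretory machinery. Of 17 ER folding genes 11 were 1.5-fold lower in the highest Muc2 tertile on total UMIs but 2 on the total without markers. Of 17 to 20 glycosylation genes 2 were higher and 1 lower on the first but 9 higher and 0 lower on the second. Over all genes 35.7% were lower and 3.46% higher on the first scale, with median log2 ratios of -0.45, -0.69 and -0.48. On the second scale 7.06% were lower and 13.1% higher, with medians of 0.02, 0.09 and 0.16. Hspa5, the ER chaperone BiP, had ratios of -0.75, -0.64 and -0.64 on the first scale and of -0.34, 0.05 and -0.07 on the second. Pdia5, a disulfide isomerase, was lower on both, by -1.22, -2.001 and -1.996 and by -0.80, -1.30 and -1.43. Atoh1 had ratios of -0.08, -0.08 and 0.08 on the first scale and of 0.34, 0.62 and 0.65 on the second. For Spdef they were -0.40, -0.39 and -0.37, and 0.01, 0.31 and 0.19. Klf4, which goblet maturation needs, was higher on both scales, by 0.77, 0.66 and 0.87 and by 1.19, 1.35 and 1.43. Interferon and MHC class I genes were higher in 2 of 8 cases on the first scale and in 7 of 8 on the second, with 0 lower on either. Cd74, the invariant chain of MHC class II, was lower by -0.84, -1.10 and -1.10 on the first and by -0.42, -0.40 and -0.53 on the second.

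**Figure D3:**
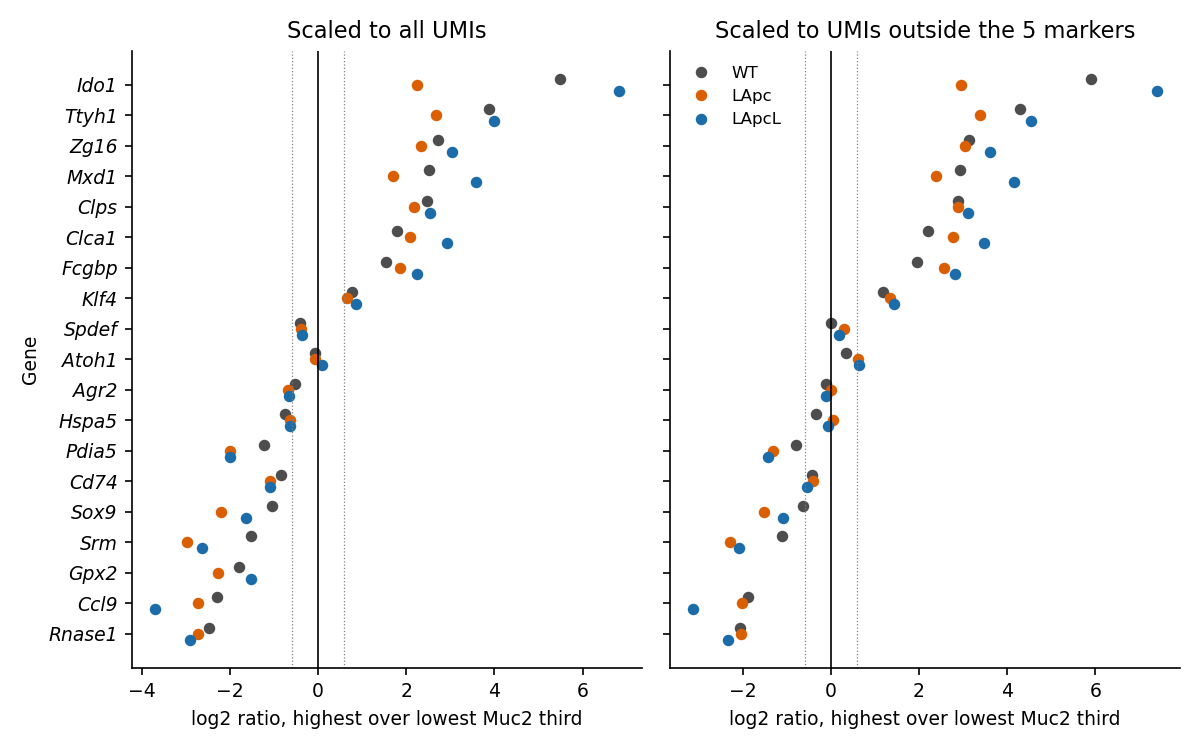
Log2 ratio between the members with the highest and the lowest Muc2 share, for 19 genes in each of the 3 libraries, on a scale of all UMIs (left) and of UMIs outside the 5 markers (right). Each point is 1 library and dotted lines mark 1.5-fold. Ido1, Ttyh1, Zg16, Mxd1, Clps, Clca1 and Fcgbp lie to the right and Srm, Ccl9 and Rnase1 to the left on both scales, Gpx2 is drawn on the left-hand scale alone, and Hspa5 and Agr2 move towards 0 on the right-hand scale.

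Between libraries, few genes of the members were 2-fold apart. In LApcL against WT, 21 of 2190 genes (0.959%) were 2-fold or more higher and 31 (1.42%) lower. In LApc against WT, 28 of 2170 (1.29%) were higher and 37 (1.71%) lower. In LApcL against LApc, 20 of 2168 (0.923%) were higher and 26 (1.2%) lower. The comparisons with WT share the WT library. On TMM scaling (a trimmed mean that balances the bulk of genes) the counts for LApcL against LApc were 12 and 39, on a total without Tff3, mitochondrial and ribosomal protein genes 46 and 27, and at a matched mix of Zg16 levels 14 and 39. That reduced total gave 32 and 32 for LApcL against WT, and the matched mix 33 and 26 for LApc against WT. The median over all genes was -0.05, -0.20 and 0.13 on the log2 scale. Of the 21 genes higher in LApcL than in WT, 20 had a ratio above 0 in enterocytes, with S100g as the exception, 17 were 2-fold higher there too, and in 2 the level in LApcL members was 2-fold or more above both enterocytes and all other kept cells. Of the 31 lower genes 30 had a ratio below 0 in enterocytes, 26 were 2-fold lower there, and 7 had WT member levels 2-fold above the other cells. In LApc against WT these counts were 24, 13 and 3 of 28 higher genes, and 34, 21 and 13 of 37 lower genes. In LApcL against LApc they were 18, 6 and 3 of 20, and 24, 14 and 1 of 26. Some of these genes are near 0 in enterocytes, where a ratio rests on few UMIs.

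The genes with the largest ratios included several that showed the same order of libraries in enterocytes. Ifitm1, an interferon-induced membrane protein, was at 0.312 CPM in WT (7 UMIs), 28.3 in LApc and 147 in LApcL members, a log2 ratio of 8.88 between LApcL and WT (95% interval 7.83 to 10.20). Enterocytes held 0.515, 45.4 and 87.2 CPM of it and all other kept cells 0.538, 414 and 941 CPM. After thinning, 0.0819%, 5.45% and 26.3% of members had an Ifitm1 UMI, and 0.125%, 5.69% and 20.5% of enterocytes. Ifitm3 was at 23.5, 82.3 and 348 CPM in members and at 15.7, 86.5 and 231 CPM in enterocytes. Clu, the secreted chaperone clusterin, was at 0.981, 67.5 and 67.7 CPM in members and at 0.515, 43.8 and 46.1 CPM in enterocytes, with thinned shares of 0.164%, 6.29% and 11.9% of members and 0.249%, 6.08% and 13.3% of enterocytes. S100g, the calcium-binding calbindin-D9k, was at 83.6, 92.97 and 556 CPM in members and at 1778, 588 and 1001 CPM in enterocytes. LApcL was thus above WT in members and below it in enterocytes. Cycling goblet cells held 83.5, 304 and 932 CPM of S100g and all other kept cells 297, 1110 and 3580 CPM, so the higher LApcL level was not particular to the members. Sprr2a3, a small proline-rich protein with close paralogs, was at 12.5, 191 and 160 CPM in members and at 6.82, 429 and 293 CPM in enterocytes. For Ifitm1, Ifitm3 and Clu the intervals of the thinned shares in members and enterocytes overlapped in LApc and in LApcL, and for S100g and Sprr2a3 the shares in members were the lower. Overlap of intervals over the cells of 1 library does not show that goblet cells and enterocytes were alike in Ifitm1, Ifitm3 and Clu. The part of RNA from outside the cells was not tested. Ifitm2 was at 210, 160 and 489 CPM in members and at 72.7, 94.997 and 277 CPM in enterocytes. Its thinned shares were 44.1%, 31.2% and 64.2% of members (60.4 to 67.8 in LApcL) and 18.2%, 18.0% and 50% of enterocytes (45.5 to 54.5). For Ifitm2 these LApcL intervals did not overlap. Counts within the Ifitm family can be split between similar copies. Of 8 adenoma genes (Sox17, Msx1, Notum, Nkd1, Wif1, Dkk2, Dkk3 and Prox1) at least 1 UMI was held by 12.4%, 11.1% and 42.5% of members and by 4.86%, 10% and 36.8% of enterocytes without thinning. Prox1 alone was found in 11.7%, 6.03% and 9.26% of members, at 14.1, 14.4 and 15.9 CPM, and gave most of the WT share. Sox17 was found in 8.66% of thinned LApcL members and in 6.35% of enterocytes, and Msx1 in 9.99% and 6.35%, with overlapping intervals.

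**Figure D4:**
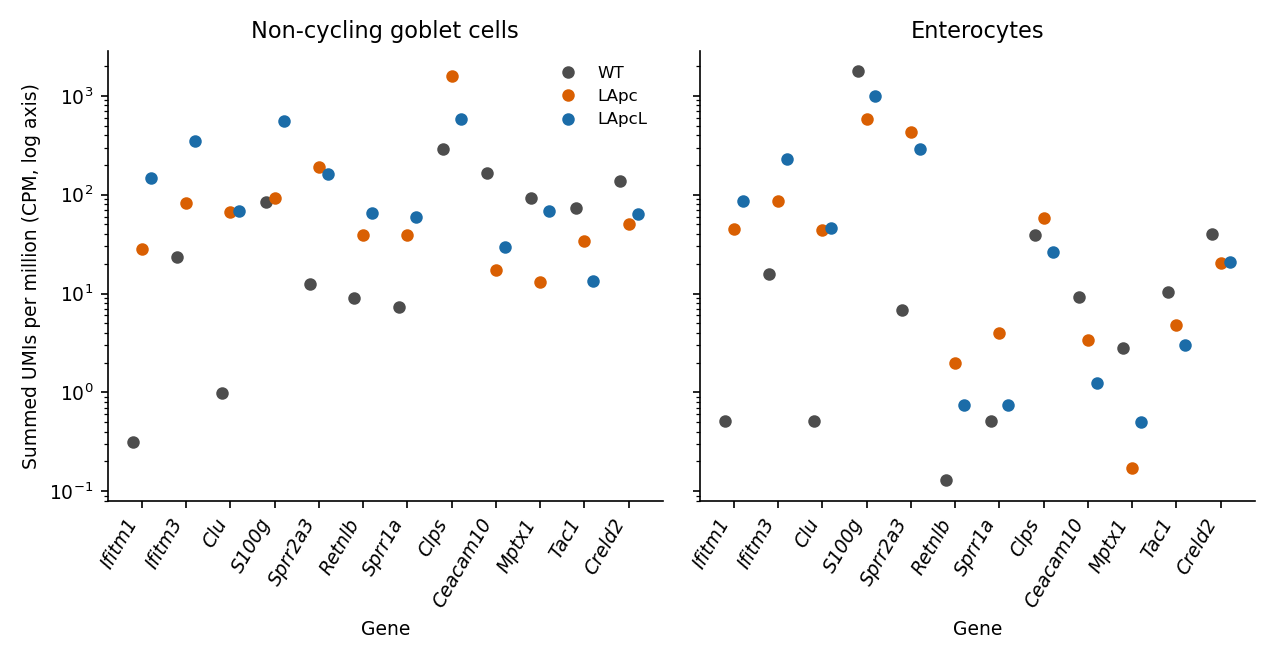
Summed level (CPM, log axis) of 12 genes in non-cycling goblet cells (left) and in enterocytes (right) of the 3 libraries, 1 point per library of 1 mouse. Ifitm1, Ifitm3, Clu and Sprr2a3 show the same order of libraries on both sides, whereas Retnlb, Sprr1a, Clps, Ceacam10, Mptx1 and Tac1 lie higher in goblet cells than in enterocytes.

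The genes with a 2-fold difference whose level in the members exceeded that of other cells by 2-fold or more were picked out after their values were seen. Against WT the lower ones included Ceacam10, a secreted member of the carcinoembryonic antigen family, at 167 CPM in WT, 17.2 in LApc and 29.4 in LApcL members. It was found in 54.6% of WT members, 7.14% of LApc and 12.6% of LApcL members, and enterocytes held 9.26, 3.38 and 1.25 CPM. Its log2 ratio was -2.50 in LApcL (-2.75 to -2.26) and -3.28 in LApc (-3.52 to -3.04), and -2.40 and -2.75 when the libraries were given the same mix of Zg16 levels. Tac1, the precursor of substance P and a member of the enteroendocrine list, was at 73.3, 34.0 and 13.4 CPM, with a UMI in 24.9%, 7.82% and 4.92% of members. Fkbp11, a prolyl isomerase of the secretory pathway, was at 229, 77.6 and 94.7 CPM, and Creld2, an ER disulfide isomerase, at 136, 51.1 and 64.0 CPM. Hsd11b2, which inactivates glucocorticoids, was at 88.6, 46.7 and 43.2 CPM and the ribonuclease Ang at 139, 99.9 and 63.0 CPM. At a matched mix of Zg16 levels 28 of the 31 genes lower in LApcL and 23 of the 37 lower in LApc were 2-fold lower, and of the higher ones 20 of 21 and 18 of 28 were 2-fold higher.

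Mptx1, a mucosal pentraxin, was low in LApc alone, with 93.5 CPM in WT, 13.2 in LApc and 69.0 in LApcL members and at most 2.83 CPM in enterocytes. Its UMIs lay in 20.4%, 3.26% and 13.3% of the members. Serpina1b, an antiprotease, was also lowest in LApc, with 219, 116 and 247 CPM. Clps went the opposite way, at 292, 1596 and 583 CPM. All other kept cells held 944, 260 and 140 CPM of it, so that WT members lay below them. In thinned barcodes 31.6%, 67.8% and 50.4% of members had a UMI of Clps, against 11.6%, 13.6% and 7.58% of enterocytes. Its log2 ratio between LApc and WT was 2.45 (2.41 to 2.49), and 1.52 at a matched mix of Zg16 levels, with which it also varied inside each library. Fcgbp was 2-fold higher in LApc than in WT, at 33962 against 15943 CPM, but its ratio of 1.09 (1.08 to 1.10) became 0.51 at a matched mix of Zg16 levels and 0.41 among barcodes of 6000 UMIs or more. The ratio of Zg16 itself was 0.90 between LApc and WT, and 0.34 among those deeper barcodes.

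Retnlb and Sprr1a were higher in the LApc and LApcL libraries than in WT, but in very few cells. Retnlb, a resistin-like peptide of goblet cells that worm infection induces, was at 9.05, 39.2 and 65.7 CPM, a log2 ratio of 2.86 between LApcL and WT (2.60 to 3.12), and was found in 2.58%, 3.33% and 4.78% of the members. The 1% of members with most of it held 77.8%, 86.9% and 66.1% of its UMIs. Sprr1a, a small proline-rich protein, was at 7.31, 38.7 and 59.1 CPM and in 2.25%, 3.20% and 5.35% of members, with 75.6% of its LApcL UMIs in the top 1%. Most members of every library had none of either.

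Among the lists of the secretory route, that of ER folding and disulfide enzymes had the lowest medians against WT. Of its 20 genes 17 were measured at 50 CPM in LApcL against WT and 18 in LApc against WT. In LApcL 2 were 2-fold lower (Agr2 and Creld2), 0 were 2-fold higher, and all 17 had ratios below 0. In LApc 4 were 2-fold lower (Creld2, Sdf2l1, Pdia5 and Hsp90b1), 0 were higher, and 1 of 18, Ero1l, was above 0. The medians were -0.77 and -0.83, beside -0.05 and -0.20 over all genes. Of all genes 1.42% were 2-fold lower and 0.959% higher in LApcL, and 1.71% and 1.29% in LApc. Agr2 was at 20220 CPM in WT, 10205 in LApc and 9794 in LApcL. Hspa5 was at 865, 459 and 506 CPM, Hsp90b1, the ER form of Hsp90, at 724, 345 and 386 CPM, and Sdf2l1 at 269, 121 and 142 CPM. Txndc5, a thioredoxin-domain isomerase, was close in all 3 libraries at 665, 659 and 600 CPM, and Ero1l, the oxidase that feeds disulfides to the isomerases, was at 28.0, 54.7 and 45.3 CPM. At a matched mix of Zg16 levels Agr2 was at -0.99 in LApcL, and Sdf2l1, Pdia5 and Hsp90b1 were at -0.80, -0.62 and -0.82 in LApc, so that these 4 were no longer 2-fold lower, and the medians were -0.69 and -0.63, and among barcodes of 6000 UMIs or more -0.72 and -0.76. Between LApcL and LApc the median was 0.11, beside 0.13 over all genes, and -0.03 on TMM scaling. There 0 of 18 genes were past 2-fold, beside 0.923% of all genes higher and 1.2% lower. The same list had medians of -0.71 and -0.58 in cycling goblet cells and of -0.53 and -0.57 in enterocytes, so this list was below 0 in other cell types of these libraries too.

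**Figure D5:**
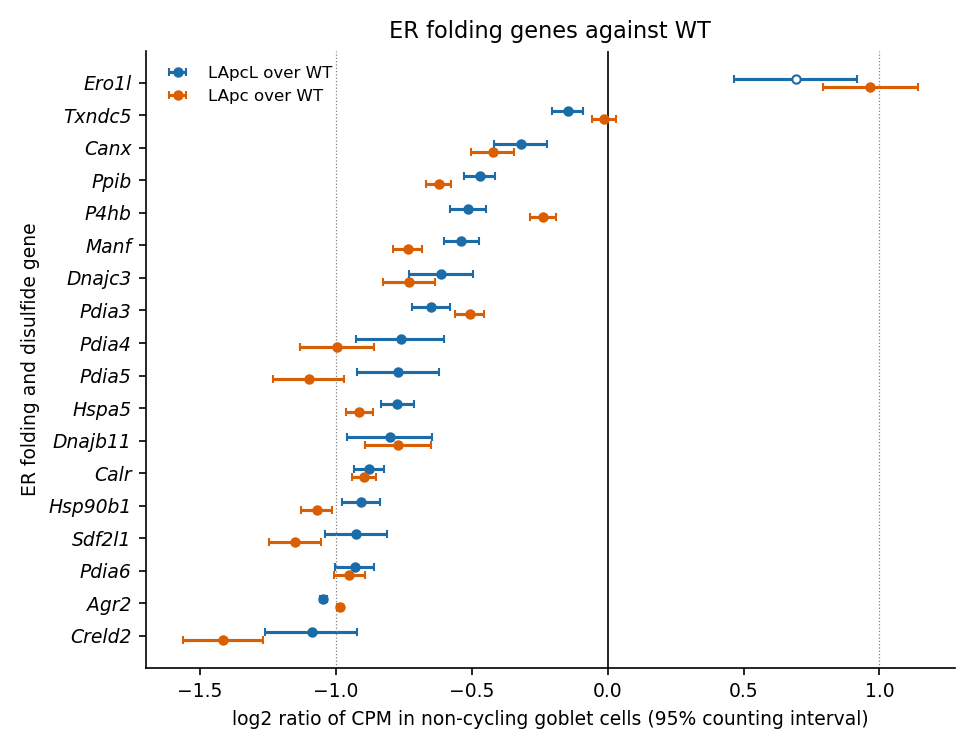
Log2 ratio of the summed level of 18 ER folding and disulfide genes in non-cycling goblet cells, LApcL over WT and LApc over WT. Bars are 95% intervals of UMI counting, dotted lines mark 2-fold, and the open symbol marks a ratio for which neither library reached 50 CPM. All genes apart from Ero1l lie below 0, with Creld2 and Agr2 at -1.09 and -1.05 in LApcL.

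For the other lists of the secretory route the counts and medians were as follows, where over all genes 0.959% were 2-fold higher and 1.42% lower in LApcL and 1.29% and 1.71% in LApc, so that 0 of about 20 genes is near the background. The ER entry and vesicle traffic list had medians of -0.35 and -0.47 in LApcL and LApc against WT, with 0 of 21 and 0 of 22 genes past 2-fold. The unfolded protein response list had medians of -0.24 and -0.13, and the glycosylation list of -0.22 and 0.06, with 0 genes past 2-fold in each. The fate factors had medians of -0.32 and -0.26 with 0 past 2-fold. Atoh1 had a ratio of -0.37 in LApcL (-0.49 to -0.25) and 0.10 in LApc (0.01 to 0.18), Spdef of -0.45 and -0.37, and Klf4 of 0.18 and 0.40. After thinning, 38.6%, 38.9% and 31.7% of members had an Atoh1 UMI and 33.2%, 27.6% and 28.3% a Spdef UMI, against at most 1.49% and 0.996% of enterocytes.

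Among secreted cargo, Agr2 was 2-fold lower and Retnlb 2-fold higher in LApcL than in WT, and the median of 15 genes was -0.16. In LApc against WT, Fcgbp was 2-fold higher, Itln1 2-fold lower, and the median of 14 genes was -0.51. Over all genes 0.959% were 2-fold higher and 1.42% lower in LApcL, and 1.29% and 1.71% in LApc, with medians of -0.05 and -0.20. At a matched mix of Zg16 levels the cargo medians were -0.23 and -0.30, and in enterocytes they were -1.24 and -0.82. The part of the larger marker share of LApc members in these values was not tested. Itln1 was at 953, 299 and 607 CPM in the members, but at 5243, 695 and 439 CPM in all other kept cells. Ang4 was at 496, 339 and 705 CPM, and 29.5% of its LApcL UMIs lay in 1% of the members. The peptide Spink4 was at 28510, 20484 and 25574 CPM, the hormone-like peptide guanylin (Guca2a) at 8728, 4982 and 6064 CPM, the kallikrein Klk1 at 1221, 768 and 808 CPM and the chemokine Ccl6 at 3246, 2237 and 2547 CPM. Each of these was highest in WT and under 2-fold apart. Muc2, at 10850, 12318 and 9411 CPM, had a ratio of -0.21 in LApcL and 0.18 in LApc.

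MHC class II genes had ratios of opposite sign in members and in enterocytes. The MHC class II list had medians of -0.54 and -0.37 in LApcL and LApc against WT with 0 of 4 genes past 2-fold, whereas in enterocytes it had medians of 1.31 and 2.42. In cycling goblet cells its medians were -0.82 and -0.28, and in all other kept cells -1.35 and 0.70. At a matched mix of Zg16 levels the medians in members were -0.44 and -0.07. Over all genes, without matching, the medians were -0.05 and -0.20. Cd74 was at 358, 253 and 244 CPM in members and at 181, 1065 and 584 CPM in enterocytes. Of MHC class I and interferon genes 0 of 8 in LApcL and 1 of 7 in LApc were 2-fold higher, beside 0.959% and 1.29% of all genes. The 1 gene was Irf7, with 36.1 CPM in WT and 73.6 in LApc. Its ratio was 0.65 at a matched mix of Zg16 levels and 0.68 among barcodes of 6000 UMIs or more, and so under 2-fold. Reg3g and Reg3b, C-type lectins of the epithelium, were at 2714, 3146 and 2196 CPM and at 3314, 5585 and 2721 CPM, below the enterocytes of the same library in LApc and LApcL (6049 and 11206 CPM for Reg3g). The villus tip list had medians of 0.18 and 0.62, from 7 of its 10 genes at 50 CPM. The ion and fluid transport list had medians of -0.32 and -0.23, from 5 and 4 of 17 genes. In it Aqp1 was 2-fold higher in LApcL, with a ratio of 1.93, beside 0.959% of all genes. The heat shock and dissociation list had medians of 0.15 and 0.34 from only 3 of its 12 genes. Fos was the lowest of them and Junb the highest, and Hspa1a, described above, stayed under 50 CPM. The bile acid-binding protein gene Fabp6, which marks the distal small intestine, was at 2610, 744 and 649 CPM in members and at 1296, 516 and 120 CPM in enterocytes. Whether the same part of the intestine was sampled in the 3 libraries was not tested.

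Hormone genes gave several of the largest ratios among members, and most WT UMIs of Sst, Gip and Ghrl lay in few barcodes. Sst was at 180, 13.2 and 144 CPM, with 89.0% and 95.1% of its UMIs in 1% of the WT and LApcL members. Its ratio of 3.44 between LApcL and LApc became -0.44 without members rich in hormone or enterocyte transcripts. Sst, Gip and Ghrl are among the 12 hormone genes whose UMIs marked such members. A change of their ratios is therefore in part set by the removal and is no test. Gip was at 304, 713 and 48.6 CPM and Ghrl at 395, 42.3 and 55.6 CPM, with 69.7% and 94.6% of their WT UMIs in 1% of the members. Gip was nonetheless found in 26.4%, 32.6% and 13.4% of thinned members and in 31.4%, 27.7% and 11.5% of thinned enterocytes. Its ratio between LApcL and WT was -0.96 without members rich in hormone or enterocyte transcripts, a removal that its own UMIs helped to set. The enteroendocrine list summed to 855, 632 and 253 CPM in the members and to 418, 555 and 193 CPM in enterocytes. Of the enterocyte list 4 of 8 genes were 2-fold lower in LApcL than in LApc and 0 were higher (1.2% and 0.923% of all genes), and Fabp1 was at 925, 2213 and 610 CPM in the members.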

How the data were processed

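The authors aligned and counted the reads of 3 droplet libraries (10x Chromium 3′ kit) with Cell Ranger 2.1.1 on mm10 (GRCm38), per the labels and methods, and deposited raw UMI counts for 27998 genes per barcode. The kit version of each library is not given in the sources used here. The authors' cell annotation was not used here. Classes were rebuilt from the limits stated in the report, and enterocytes were kept barcodes with Fabp1 at 0.5% of UMIs or more, Tff3 under 2% and the other limits of the members. All other kept cells were the kept barcodes outside the members, the cycling goblet cells and the Lyz1-rich goblet cells. UMIs were summed per library and class and scaled to CPM. Ratios were computed for genes at 50 CPM or more on either side, with exact binomial intervals (95%), which cover counting error only. For comparisons between classes a gene had to pass in all 3 libraries. With 1 library per genotype no test was made. Doublets were not removed; Scrublet in scanpy 1.11.5 was an alternative, beside other limits, scalings, thinning and cell subsets. The members and the 24 gene lists (309 genes, 308 measured) were chosen with earlier results of these data known. Named genes are those of the lists, the 5 markers, and in each comparison the 10 highest and 10 lowest, by the smallest difference over the 3 libraries where classes or tertiles are compared. The ratio computation was tested on simulated counts. Python 3.11.15, numpy 2.4.6, scipy 1.17.1 and pandas 2.3.3 were used.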

Additional observations from a re-analysis of the deposited data

Results flagged for a closer look

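Barcodes above the mitochondrial limit of 20% lie outside every comparison above, and some of them passed all other limits of the non-cycling goblet cells. There were 66 such barcodes in LApc and 5 in LApcL, or 4.06 and 0.724 for every 100 members, against 1 barcode, or 0.041 for every 100 members, in WT. Altogether 62, 2088 and 410 barcodes of WT, LApc and LApcL exceeded the mitochondrial limit. The values are those of 1 library each, and the difference was not tested.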

How the results depend on the processing

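No paired analysis was possible because each genotype had 1 library. The share of members (WT, LApc, LApcL) was 22.4%, 17.2% and 4.64% with Tff3 at 1% or more, 15.3%, 11.6% and 2.75% at 5% or more, 13.0%, 11.6% and 2.35% with 0 cell-cycle UMIs, and 14.7%, 12.9% and 3.34% with Defa24 under 0.5%. It was 16.3% in LApc with at most 10% mitochondrial UMIs, 26.2% in WT and 5.12% in LApcL after thinning, 8.84% in LApc and 3.08% in LApcL at 6000 UMIs or more, and 19.6% in WT and 13.6% in LApc without members rich in hormone or enterocyte transcripts. The order WT, LApc, LApcL held under each. Genes 2-fold apart from cycling goblet cells numbered 8 with Tff3 at 5% and 38 after Scrublet, beside 71. For Lyz1-rich cells they numbered 58 with Defa24 under 0.5%, 17 after thinning and 12 after Scrublet, beside 27. Between libraries, genes past 2-fold numbered 195, 242 and 210 at 10 CPM or more and 22, 30 and 21 at 200 CPM or more (LApcL over WT, LApc over WT, LApcL over LApc), beside 52, 65 and 46. For LApcL over LApc they numbered 73 on a total without Tff3, mitochondrial and ribosomal protein genes. The split of higher and lower genes moved with the scale: for LApcL over LApc it was 20 and 26, but 12 and 39 by TMM, 46 and 27 on that reduced total and 14 and 39 at a matched Zg16 mix. For LApcL over WT the reduced total gave 32 and 32 beside 21 and 31, and for LApc over WT the matched mix gave 33 and 26 beside 28 and 37. Between Muc2 tertiles 508 genes passed 1.5-fold without the 5 markers in the total, beside 802. The Sst ratio between LApcL and LApc reversed to -0.63 with Tff3 at 5%, to -0.44 without hormone-rich or enterocyte-rich members and to -0.88 without members holding an adenoma transcript. Sst UMIs were among those that marked the hormone-rich members. The Afp ratio between LApc and WT was -1.59 and reversed to 1.23 with Tff3 at 1%. Of 2771 alternative values of the 163 ratios past 2-fold between libraries, 2767 kept their direction and 2509 stayed past 2-fold. The matched Zg16 mix, the 6000 UMI limit, the removal of hormone-rich or enterocyte-rich members, the Zg16 tertiles and the totals without markers were chosen after seeing the data. The cause of these changes was not tested. Depth limits low genes, and LApc members were the shallowest.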
